A study of Mus musculus with 7 samples.

Results

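The genes described here are those of mouse histocompatibility and antigen processing, chosen as every gene whose symbol in the platform annotation starts with H2- together with B2m, Tap1, Tap2, Tapbp, Psmb8, Psmb9, Psmb10, Nlrc5, Ciita and Cd74. They are 44 genes of 19324 named on the array, 34 of them H2- genes, and they are read by 79 of its 45037 probe sets. Of the 79 probe sets, 15 name several genes, 22 carry the suffix x_at and 6 the suffix s_at, which mark probes that can also bind other transcripts, so that a value may belong to more than 1 H2 gene. By role the probe sets divide into 15 of classical class I, 23 of nonclassical class I, 22 of class II, 4 of Cd74 and Ciita, 9 of B2m and peptide loading, 5 of the immunoproteasome and Nlrc5, and 1 of H2-Ke6, a steroid dehydrogenase gene of the same chromosomal stretch that is no histocompatibility chain.

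Expression was measured on Affymetrix 430 2.0 arrays in sorted luminal cells, the secretory epithelium of the prostate, with 4 arrays from T-ETV1 mice (A to D) and 3 from wild-type mice (WT A to C). T-ETV1 mice carry a cDNA of human ETV1, an ETS transcription factor, driven by the mouse's own Tmprss2 promoter. Both genotypes were sorted as CD31-, CD45-, Ter119-, Sca1- and CD49f+, and T-ETV1 cells were in addition GFP+, so the allele cannot be told apart from the GFP gate. The sources used here give neither age nor strain background, and so not the H2 haplotype. The series text speaks of 3 biological replicates and the labels name 4 T-ETV1 arrays, with nothing said of how mice were pooled, so p-values measure the spread between these arrays.

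Class I molecules, a heavy chain paired with B2m, show peptides cut in the cytosol to CD8 T cells, and nearly every nucleated cell makes them. The TAP transporter carries the peptides into the endoplasmic reticulum, and tapasin (Tapbp) holds it next to the empty class I molecule. Class II molecules, a pair of chains guided by the invariant chain Cd74, are made mostly by professional antigen-presenting cells, and also by epithelia under interferon gamma, where the coactivator Ciita switches them on and its relative Nlrc5 serves class I. The H2 genes are among the most polymorphic of the mouse, and inbred strains differ in the sequence of each and in how many class I genes they hold, so a probe designed on 1 haplotype may bind the transcript of another poorly.

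The start regions of 5 H2 genes are shown because the results turn on these genes and because the X-Y module of class II and the enhancer A of class I lie there. They are taken from RefSeq on GRCm38.p6, 300 bases around the annotated start with most of them upstream, read 5′ to 3′ on the strand of the gene. For H2-K1, which has 2 windows, the one listed first is shown. Capitals mark the letters CTGATTGG, the Y box of class II, or their reverse complement CCAATCAG. They also mark the letters GGGGATTCC, the core of enhancer A, whose reverse complement GGAATCCCC was searched as well. In the class I windows the reversed letters are marked as letters only and are not named the Y box.
H2-Aa promoter, chr17:34287774-34288073, minus strand: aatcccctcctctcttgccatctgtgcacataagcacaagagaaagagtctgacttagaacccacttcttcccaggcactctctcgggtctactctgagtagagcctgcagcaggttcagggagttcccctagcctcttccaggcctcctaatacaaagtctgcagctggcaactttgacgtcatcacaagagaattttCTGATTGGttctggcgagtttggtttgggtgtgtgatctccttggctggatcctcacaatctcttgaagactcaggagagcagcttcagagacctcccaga
H2-Eb1 promoter, chr17:34305617-34305916, plus strand: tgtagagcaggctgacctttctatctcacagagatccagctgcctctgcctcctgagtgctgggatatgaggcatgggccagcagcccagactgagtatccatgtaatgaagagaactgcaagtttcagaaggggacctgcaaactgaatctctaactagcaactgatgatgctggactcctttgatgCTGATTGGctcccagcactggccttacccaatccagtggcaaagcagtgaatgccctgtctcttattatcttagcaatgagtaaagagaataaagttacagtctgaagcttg
H2-K1 promoter, chr17:34000298-34000597, minus strand: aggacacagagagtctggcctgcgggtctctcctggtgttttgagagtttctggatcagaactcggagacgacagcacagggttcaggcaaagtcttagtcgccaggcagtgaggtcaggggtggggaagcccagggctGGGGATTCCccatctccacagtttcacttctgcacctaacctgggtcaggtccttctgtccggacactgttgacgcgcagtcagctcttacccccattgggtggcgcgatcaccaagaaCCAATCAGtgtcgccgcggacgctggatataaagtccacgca
H2-D1 promoter, chr17:35262844-35263143, plus strand: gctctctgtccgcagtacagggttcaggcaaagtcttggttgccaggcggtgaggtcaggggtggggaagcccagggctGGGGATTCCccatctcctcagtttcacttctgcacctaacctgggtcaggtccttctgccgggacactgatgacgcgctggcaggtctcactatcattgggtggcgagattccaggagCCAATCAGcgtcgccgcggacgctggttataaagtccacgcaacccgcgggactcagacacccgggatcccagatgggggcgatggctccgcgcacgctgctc
H2-Q10 promoter, chr17:35469839-35470138, plus strand: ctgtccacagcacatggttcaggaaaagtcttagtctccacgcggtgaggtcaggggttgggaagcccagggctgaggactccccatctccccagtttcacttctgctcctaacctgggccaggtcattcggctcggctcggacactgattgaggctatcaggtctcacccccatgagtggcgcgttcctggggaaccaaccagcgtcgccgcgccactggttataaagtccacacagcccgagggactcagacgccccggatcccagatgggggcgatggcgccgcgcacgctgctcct

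The letters CTGATTGG stood in both class II windows shown. The class I windows of H2-K1 and H2-D1 held CCAATCAG together with the enhancer A letters. The H2-Q10 window held neither run of letters. Of the 44 genes, 29 had a RefSeq window. CTGATTGG or CCAATCAG stood in 14 of these (48.3%), against 4.7% of all 27025 genes with a window. Among the 8 class II genes with a window, 4 held either run, namely H2-Aa, H2-Eb1, H2-Eb2 and H2-Oa. The windows of the other class II genes held neither. Enhancer A letters stood in 4 of the 29, namely H2-D1, H2-K1, H2-Q6 and H2-Q7 (13.8%), against 0.296% of all genes. A match describes these letters in the reference sequence, which may differ in the strain used.

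As a check of the label, 8 of 8 measured luminal markers, among them Krt8, Krt18 and probasin (Pbsn), lay above the array median on all 7 arrays. The median intensity of an array ran between 48.5 and 73.7. Precision is limited by having 7 arrays. WT C, and to a lesser degree T-ETV1 C, stood apart by macrophage markers, while basal markers were raised on WT A and WT B as well. The summed intensity of 9 macrophage markers was 587, 300.2, 7787 and 117 in T-ETV1 A to D and 206, 350 and 16460 in WT A to C, and that of 5 basal markers was 326, 985, 13830 and 1195 in T-ETV1 and 4006, 10530 and 16590 in WT. In T-ETV1, 5 of 5 basal, 6 of 6 endothelial, 6 of 6 fibroblast and 5 of 5 smooth muscle markers were lower, with 0 called. Their median log2 differences were -2.76, -1.93, -2.06 and -1.35. The basal sums of WT A and WT B also lay above those of T-ETV1 A, B and D, while that of T-ETV1 C lay above both. Genotype and the GFP gate cannot be told apart in these differences. Values that move most without WT C are given without it too.

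**Figure D1:**
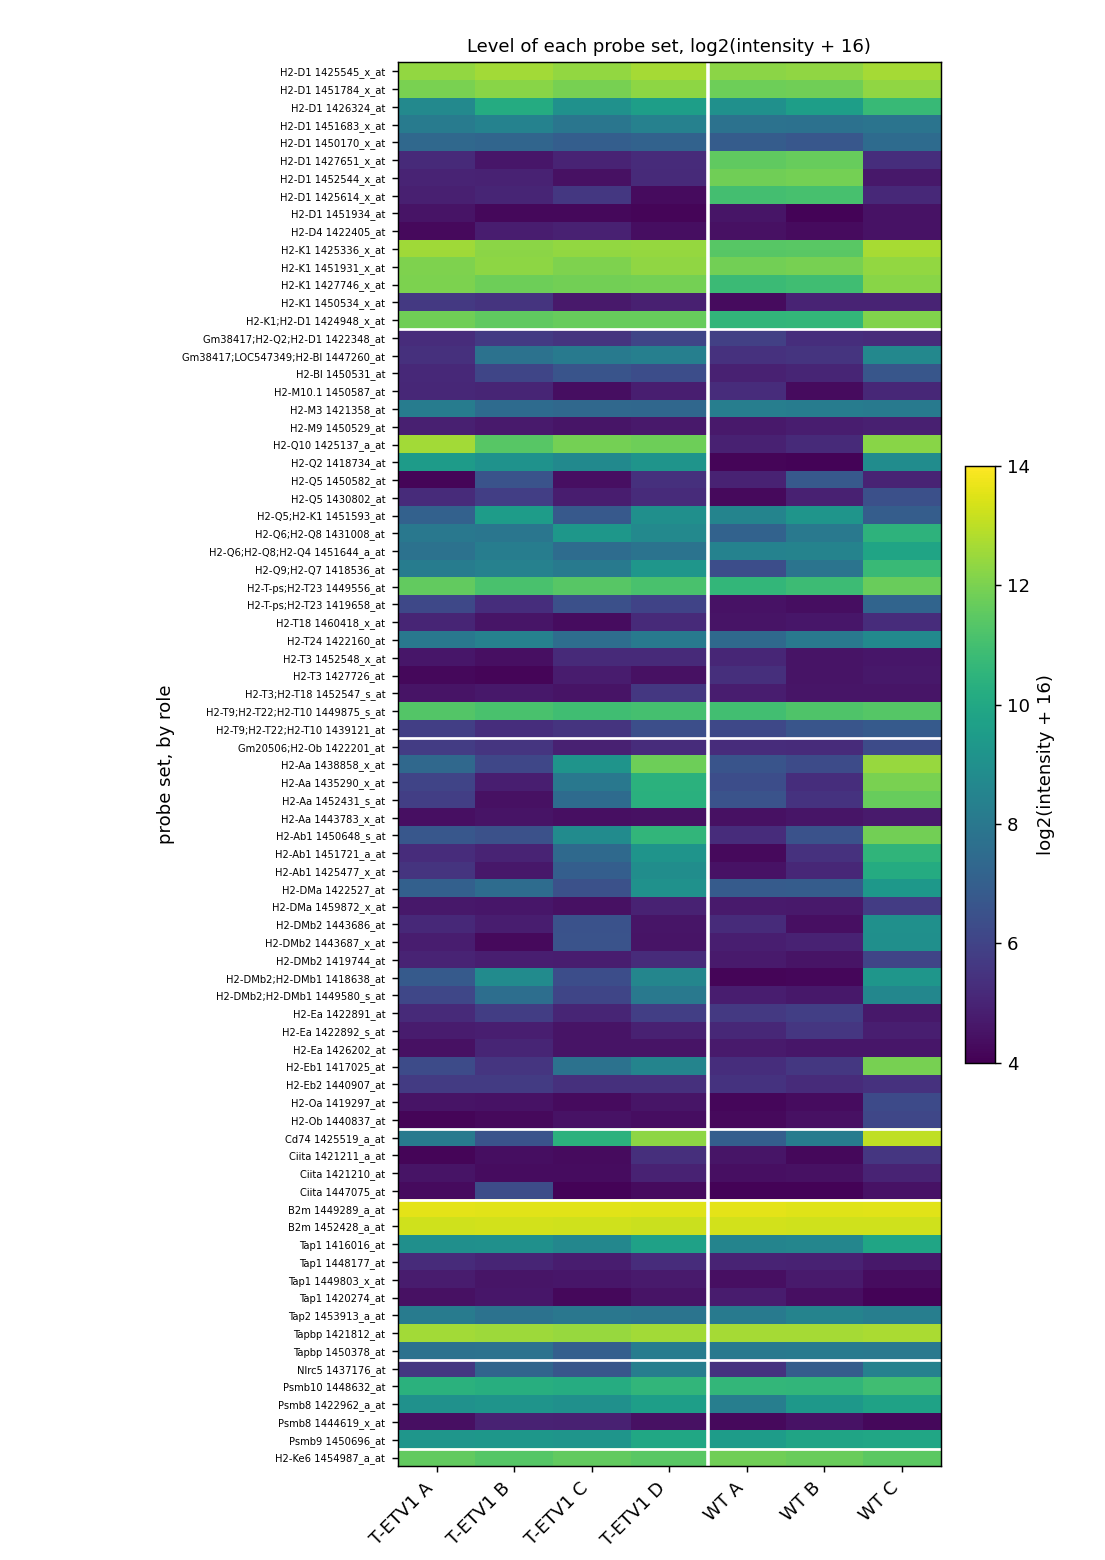
Level of all 79 probe sets as log2(intensity + 16), in colour, with 1 column per array (T-ETV1 A to D, then WT A to C) and 1 row per probe set, in blocks by role set off by white lines. A block of 3 H2-D1 rows are bright in WT A and WT B alone, H2-Q10 and H2-Q2 are dark there alone, and 12 of 22 class II rows and 3 of 4 of Cd74 and Ciita are brightest in WT C and, within T-ETV1, in T-ETV1 D.

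Between the genotypes no member passed the test. With limma on log2(intensity + 16), adjusted over all probe sets, 0 of 79 member probe sets and 0 of all 45037 (0.0%) were past an adjusted p of 0.05. At an unadjusted p under 0.05 there were 10 member probe sets, 3 higher and 7 lower in T-ETV1, beside 5.89% of all probe sets. The groups did not overlap in 4 member probe sets, beside 6.28% of all, a share near that of the whole array. Of the members 35 were higher and 44 lower in T-ETV1, with a median log2 difference of -0.03, against -0.02 over all probe sets. In the fit paired by replicate letter (the replicate block), which leaves out T-ETV1 D, 0 were called and the groups did not overlap in 10 member probe sets, beside 9.32% of all.

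Among the classical class I genes, whose products present peptides on nearly all cells, H2-D1 was read by 9 probe sets that did not move together. Probe set 1452544_x_at had intensities of 15.8, 14.7, 5.9 and 20.5 in T-ETV1 A to D, and 3608, 3817 and 8.83 in WT A to C. It was high on WT A and WT B only, and WT C lay within the range of the T-ETV1 arrays. Probe set 1427651_x_at had 20.2, 8.1, 15.6 and 21.9 in T-ETV1, against 2968, 3221 and 23.1 in WT, and here WT C was just above the highest T-ETV1 array. Probe set 1425614_x_at had 13.3, 17.2, 33.3 and 3.46 in T-ETV1, against 2059, 2163 and 19.1 in WT, with WT C again inside the T-ETV1 range. The log2 differences of these 3 probe sets were -4.56 ± 1.73, -4.50 ± 1.51 and -4.12 ± 1.44 (± SE), with adjusted p of 0.828, 0.821 and 0.821 by limma. The standard deviation within T-ETV1 was 0.31, 0.29 and 0.55 log2 units, against 4.17, 3.64 and 3.42 within WT.

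Other probe sets of the same gene did not show the split. H2-D1 probe set 1425545_x_at had 5348, 6254, 5304 and 6427 in T-ETV1, against 4917, 5177 and 6405 in WT, and 1451784_x_at had 4100, 4801, 3962 and 4972 in T-ETV1, against 3571, 3598 and 5177 in WT. On both, all 7 arrays lay close together and the groups overlapped. Probe set 1451683_x_at had 271, 330, 230 and 324 in T-ETV1, against 204, 198 and 212 in WT. Its groups did not overlap, with a log2 difference of 0.45 ± 0.15 and an adjusted p of 0.821. The H2-D1 probe set 1426324_at had 397, 1121, 511 and 772 in T-ETV1, against 501, 767 and 1684 in WT, with the top value on WT C. Of the remaining pair, 1450170_x_at lay between 89.0 and 163 on the 7 arrays, and 1451934_at between 1.17 and 7.5.

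H2-K1, the other classical heavy chain, showed a smaller step in the opposite direction. Probe set 1425336_x_at had 6005, 4945, 5320 and 5453 in T-ETV1, against 2684, 2738 and 6666 in WT. WT A and WT B were lowest and WT C was highest, so the groups overlapped, and the log2 difference was 0.56 ± 0.33 (adjusted p 0.893, limma). Probe set 1427746_x_at had 4193, 3520, 3766 and 3862 in T-ETV1, against 1809, 1944 and 4794 in WT, and 1424948_x_at, which names H2-K1 and H2-D1 together, had 3650, 2999, 3243 and 3277 in T-ETV1, against 1530, 1575 and 4350 in WT. On all 3 probe sets WT A and WT B were lowest and WT C highest. The H2-K1 probe set 1451931_x_at had 4220, 5035, 4219 and 5130 in T-ETV1, against 3719, 3937 and 5313 in WT, which is the same order with a smaller step, as on H2-D1 1451784_x_at. Without WT C the log2 difference of 1425336_x_at was 0.995, still not called. The 4th H2-K1 probe set, 1450534_x_at, lay between 3.71 and 35.2, and that of H2-D4, a pseudogene in RefSeq, between 3.21 and 14.

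In the Q region, which holds nonclassical class I genes, H2-Q10 and H2-Q2 had the mirror image of the 3 H2-D1 probe sets. H2-Q10, which encodes a secreted class I heavy chain known from liver, had 6228, 2701, 3798 and 3543 in T-ETV1, against 14, 20.1 and 4799 in WT. WT A and WT B were lowest and WT C lay inside the T-ETV1 range. H2-Q2, another nonclassical heavy chain gene, had 709, 534, 411 and 561 in T-ETV1, against 1.48, 1.24 and 450.2 in WT, in the same order. The log2 differences were 4.49 ± 1.73 for H2-Q10 and 3.43 ± 1.14 for H2-Q2, with adjusted p of 0.828 and 0.821.

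**Figure D2:**
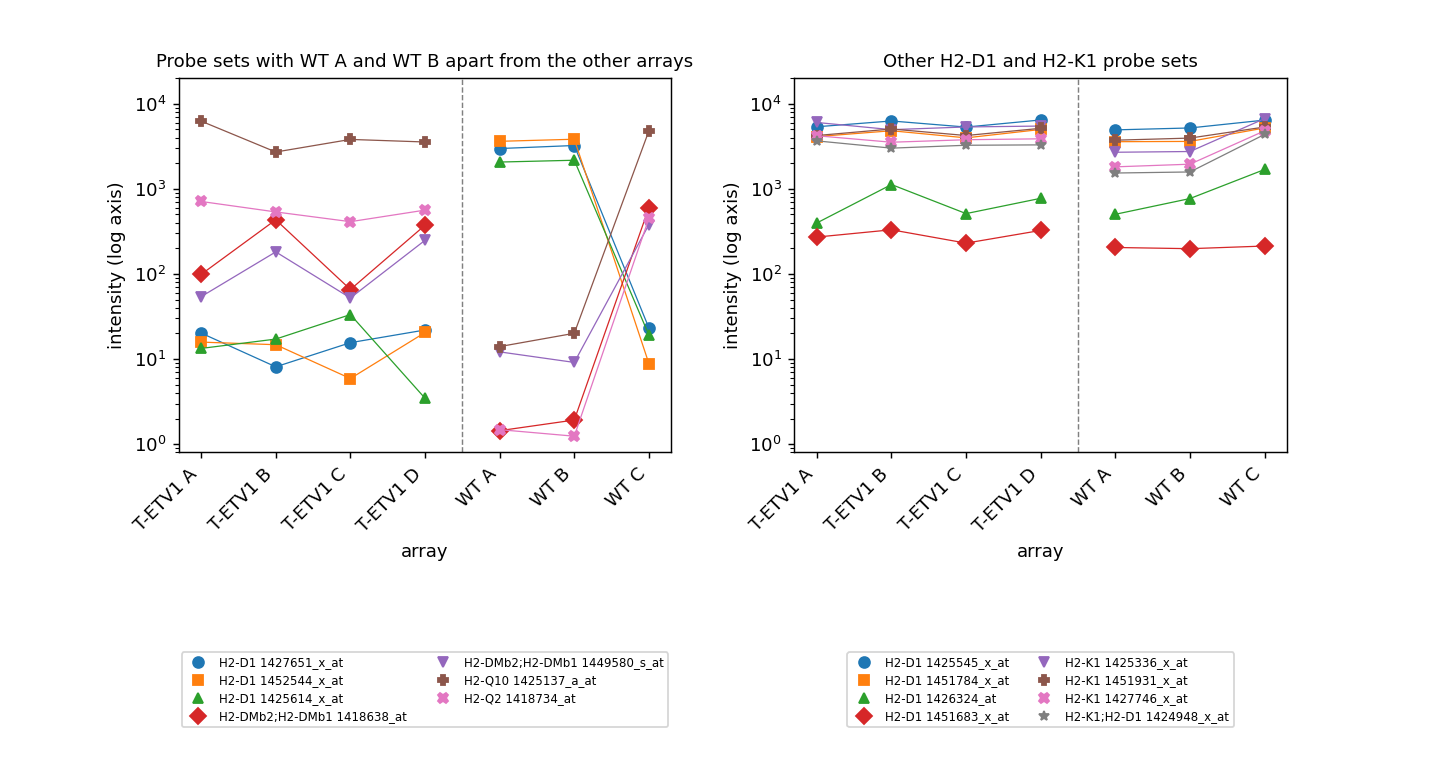
Intensity (log axis) on each array, T-ETV1 A to D left of the dashed line and WT A to C right of it, with 1 symbol per probe set. On the left panel WT A and WT B lie at least 1 log2 unit from all other arrays for 7 probe sets of H2-D1, H2-Q10, H2-Q2 and H2-DMb; on the right panel 8 other H2-D1 and H2-K1 probe sets differ less.

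The split was counted over the whole array. WT A and WT B lay both above or both below the other 5 arrays by at least 1 log2 unit in 7 of the 79 member probe sets (8.86%), against 50 of all 45037 (0.111%). This count has no test, since earlier results of these data had shown it for H2-Q10. Of the 7, WT A and WT B were above in 3 and below in 4, and WT C lay within the range of the T-ETV1 arrays in 4. The 5 widest gaps of all 50 were those of the 3 H2-D1 probe sets, H2-Q10 and H2-Q2. By gene order in RefSeq, the pattern held in 1 of 156 probe sets of other genes in the stretch of chromosome 17 from H2-K2 to H2-M2, in 8 of 1288 elsewhere on that chromosome (0.621%) and in 29 of 33241 on other chromosomes (0.0872%). Among the 9 on chromosome 17, Dnase1l2, a DNase gene, had 2444, 1285, 1243 and 1394 in T-ETV1, against 62.6, 71.1 and 1295 in WT. Glo1, which encodes glyoxalase 1, had 1062, 1000.03, 1404 and 857 in T-ETV1, against 258, 238 and 1254 in WT. Both were named after their values were seen. The H2 haplotype of each array is not given, and its part in the split was not tested.

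Without WT C, limma called 12 probe sets of the whole array (0.0266%), and 5 of them were members. Against WT A and WT B alone, H2-Q10 was higher in T-ETV1 by 6.89 ± 0.34 log2 units (adjusted p 0.0103) and H2-Q2 by 5.01 ± 0.23 (adjusted p 0.00875). The 3 H2-D1 probe sets were lower, with differences of -6.97 ± 0.23 for 1452544_x_at and -6.60 ± 0.22 for 1427651_x_at (adjusted p 0.00204 for both) and of -6.10 ± 0.36 for 1425614_x_at (adjusted p 0.021). These 5 are the probe sets with the widest gaps above, and WT C is the wild-type array outside that split. Their small p without WT C thus restates the gap and adds no support. Over all alternatives run, the adjusted p of these 5 ran from 0.00204 to 1.0. Without both C arrays the same count was 5 members of 42 probe sets called (0.0933% of all). Without WT A and WT B, which leaves WT C as the only wild-type array and assumes that it varies like the T-ETV1 arrays, 288 probe sets were called (0.639%) and 0 of them were members. The log2 difference of H2-Q10 was then -0.31, that of H2-Q2 0.26, and those of the 3 H2-D1 probe sets 0.26, -0.29 and -0.18. These 5 differences thus rest on WT A and WT B against everything else, WT C included.

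**Figure D3:**
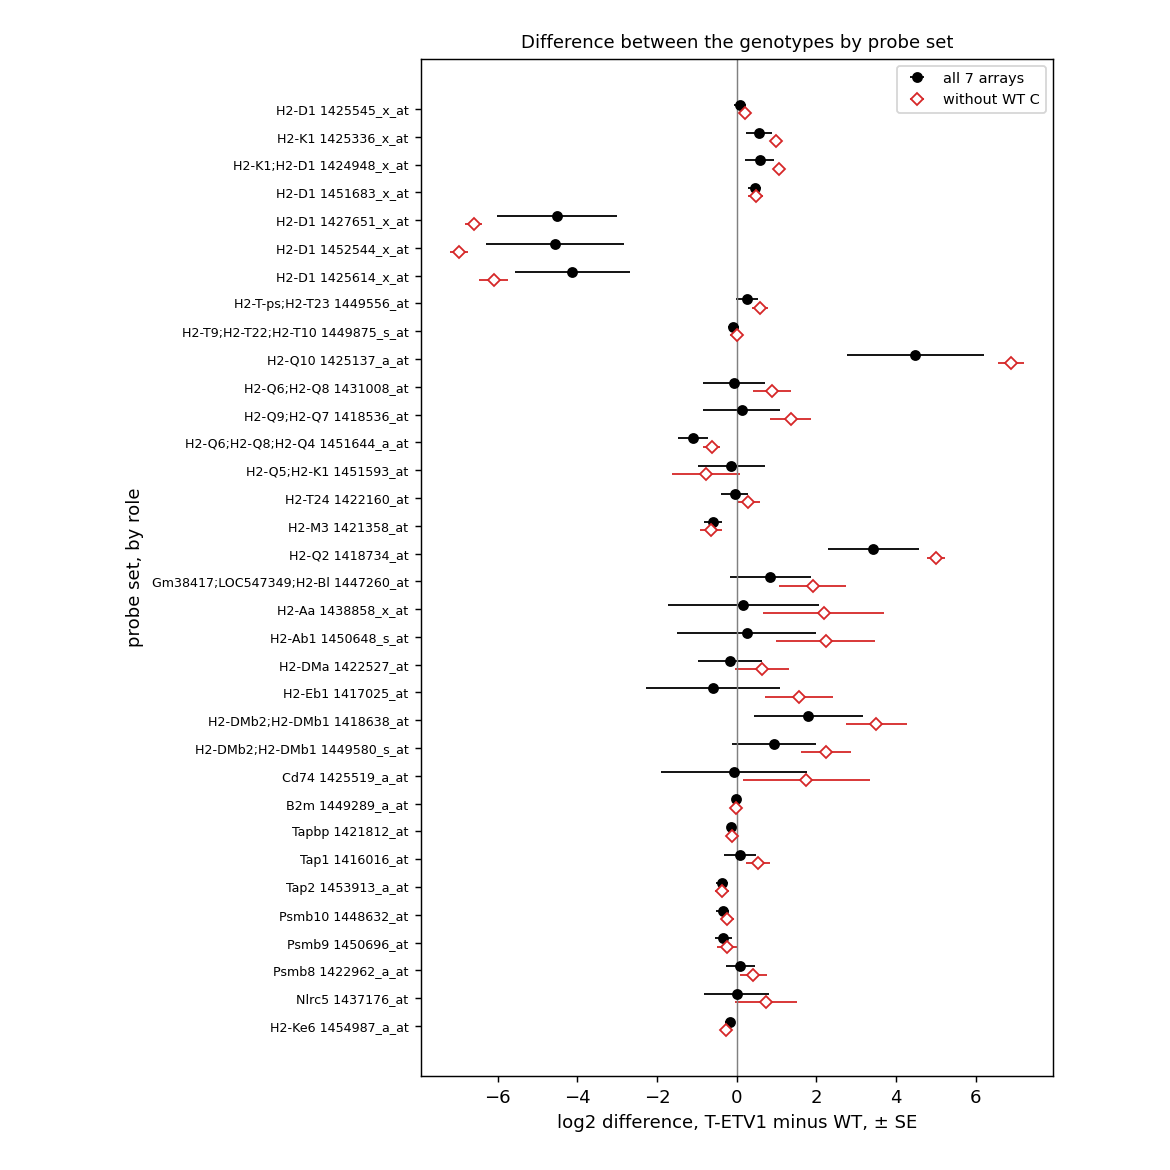
Log2 difference, T-ETV1 minus WT, with its SE from limma (horizontal axis) for the 34 probe sets named by rule (vertical axis, by role), on all 7 arrays (filled circles) and without WT C (open diamonds). Without WT C the error bars of H2-D1, H2-Q10 and H2-Q2 shrink and their differences reach 6.89 and -6.97, while B2m and Tapbp stay at 0 or close to it.

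The other nonclassical class I genes were mixed. Probe set 1451644_a_at, which names H2-Q6, H2-Q8 and H2-Q4, had 204, 288, 170 and 207 in T-ETV1, against 331, 344 and 910.2 in WT. All T-ETV1 arrays were below all WT arrays, and the log2 difference was -1.09 ± 0.38 (adjusted p 0.821). It was -0.62 without WT C and -0.52 without both C arrays. H2-Q9 and H2-Q7, genes of the Qa-2 antigen read together by 1418536_at, had 280.2, 318, 252 and 596 in T-ETV1, against 67.1, 217 and 1758 in WT. WT A was lowest and WT C highest, so the wild-type arrays enclosed the T-ETV1 ones. H2-Q6 and H2-Q8 on 1431008_at likewise had 241, 227, 605 and 403 in T-ETV1, against 125, 247 and 1383 in WT. The joint H2-Q5 and H2-K1 probe set 1451593_at had 123, 719, 96.1 and 489 in T-ETV1, against 350.2, 583 and 109 in WT, with high and low arrays in both genotypes.

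In the T and M regions, H2-T23, the gene of Qa-1 that presents leader peptides of other class I chains to NK cell receptors, had 3063, 2232, 2707 and 2204 in T-ETV1, against 1541, 1826 and 3307 in WT, on a probe set that also names H2-T-ps. The joint probe set of H2-T9, H2-T22 and H2-T10, of which T22 and T10 products are ligands of some gamma delta T cell receptors, had 2525, 2225, 1931 and 2101 in T-ETV1, against 2001, 2380 and 2585 in WT. On both the groups overlapped, and on the H2-T23 set WT A and WT B were lowest and WT C highest. A second joint probe set of these 3 genes, 1439121_at, had 41.7, 23.5, 29.4 and 69.7 in T-ETV1, against 56.1, 83.8 and 98.3 in WT, a log2 difference of -0.78 ± 0.30 (adjusted p 0.828). H2-M3, which presents formylated peptides of bacteria and mitochondria, had 280, 167, 149 and 146 in T-ETV1, against 296, 282 and 258 in WT. Only T-ETV1 A overlapped the wild-type arrays, and the log2 difference was -0.60 ± 0.23 and not called.

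H2-T24 had 241, 318, 174 and 262 in T-ETV1, against 155, 245 and 419 in WT, again with WT A lowest and WT C highest. The probe set 1447260_at, which names the pseudogene H2-Bl with 2 other loci, had 25.4, 199, 257 and 301 in T-ETV1, against 27.2, 29.6 and 386 in WT. T-ETV1 A was here as low as WT A and WT B. The remaining 11 probe sets of nonclassical class I genes, of H2-Bl, H2-M9, H2-M10.1, H2-Q5, H2-T3, H2-T18, H2-T-ps with H2-T23 and a joint set of H2-Q2 and H2-D1, differed by -0.47 to 0.61 log2 units between the genotypes and none was called. Of these, the second H2-T23 set, 1419658_at, had 55.3, 23.4, 71.7 and 47.7 in T-ETV1, against 6.54, 4.52 and 135 in WT. WT A and WT B were its lowest arrays, by a gap of under 1 log2 unit.

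None of the partners of class I was called. B2m, the light chain of every class I molecule, had 12163, 12015, 11894 and 11759 in T-ETV1, against 12214, 11748 and 12035 in WT on 1449289_a_at. The groups overlapped, with a log2 difference of -0.00 ± 0.10 (adjusted p 0.998). Tapbp had 6278, 5909, 5533 and 6187 in T-ETV1, against 6370, 6469 and 6786 in WT on 1421812_at. All WT arrays were above all T-ETV1 arrays, and the log2 difference was -0.13 ± 0.11 (adjusted p 0.915). Tap2, one chain of the peptide transporter, had 267, 203, 233 and 212 in T-ETV1, against 258, 341 and 293 in WT, a log2 difference of -0.36 ± 0.15 (adjusted p 0.848). Tap1, its partner, had 488, 502, 376 and 823 in T-ETV1, against 345, 368 and 924 in WT. WT C and T-ETV1 D were its highest arrays.

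The immunoproteasome subunits replace those of the standard proteasome and change which peptides are cut. Psmb10 had 1306, 1223, 1157 and 1525 in T-ETV1, against 1538, 1505 and 1960 in WT. Psmb9 had 601, 603, 574 and 988 in T-ETV1, against 716, 889 and 963 in WT, and Psmb8 had 510.2, 559, 509 and 759 in T-ETV1, against 291, 621 and 861 in WT. In each of the 3 genes T-ETV1 D was the highest T-ETV1 array and the groups overlapped. Within the letters A, B and C, T-ETV1 was lower in every pair for Psmb10 (log2 differences of -0.23, -0.30 and -0.75) and for Psmb9 (-0.25, -0.55 and -0.73). Neither was called by limma with the replicate block (adjusted p 0.79 and 0.75). These pairs leave out T-ETV1 D, and both genes were singled out after their values were seen. Tapbp 1421812_at, H2-M3, 1451644_a_at and H2-D1 1427651_x_at and 1452544_x_at were also lower in every pair. H2-D1 1451683_x_at was higher in every pair. Nlrc5, the coactivator of class I genes, had 33.0, 137, 85.4 and 284 in T-ETV1, against 28.5, 107 and 322 in WT, with WT C and T-ETV1 D again on top. H2-Ke6 had 3116, 2650, 3093 and 2775 in T-ETV1, against 3655, 3306 and 2845 in WT, with overlap.

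Cd74 and the chains of I-A and H2-Eb1 were highest on WT C and, within T-ETV1, on T-ETV1 D. Cd74 had 254, 78.5, 1376 and 5042 in T-ETV1 A to D, against 110, 280.3 and 8477 in WT A to C. WT C was highest, T-ETV1 D next and T-ETV1 C after it. H2-Aa, the alpha chain of I-A, had 152, 54.5, 561 and 3506 in T-ETV1, against 80.9, 61.4 and 5648 in WT on 1438858_x_at, and H2-Ab1, its beta chain, had 88.2, 72.4, 438 and 1500 in T-ETV1, against 22.6, 76.9 and 3682 in WT on 1450648_s_at. H2-Eb1, the beta chain of I-E, had 61.6, 31.2, 203 and 353 in T-ETV1, against 23.5, 33.9 and 3925 in WT. The same 3 arrays led in all 4 genes, and the other 4 arrays were lower, in both genotypes.

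The log2 differences between genotypes were accordingly small beside their errors. They were -0.07 ± 1.84 for Cd74, 0.17 ± 1.89 for H2-Aa, 0.25 ± 1.74 for H2-Ab1 and -0.59 ± 1.69 for H2-Eb1, with adjusted p of 0.999, 0.998, 0.996 and 0.986 by limma. With arrays left out they took both signs: without WT C they were 1.75, 2.19, 2.24 and 1.56, and without WT A and WT B -3.71, -3.85, -3.71 and -4.91, none of them past the threshold. Other probe sets of H2-Aa and H2-Ab1 had the opposite sign on all arrays. H2-Aa was -0.58 on 1435290_x_at, -0.86 on 1452431_s_at and -0.14 on 1443783_x_at. H2-Ab1 was -0.03 on 1451721_a_at and -0.08 on 1425477_x_at, and none was called. In such sorted populations fewer cells that carry a transcript and less of it per cell cannot be told apart.

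Over all class II probe sets, WT C was the highest array and T-ETV1 D the highest of its genotype in 12 of 22, in 3 of the 4 of Cd74 and Ciita and in 3 of the 5 of the immunoproteasome and Nlrc5. Among all 79 members this order held in 25 (31.6%), and among all probe sets in 3.25%. WT C alone was highest in 18 of the 22 class II probe sets, against 19.7% of all probe sets. The order was read from these arrays after their values were known and was not tested. Ciita was at low intensity throughout, with 1.63, 4.93, 3.6 and 24.2 in T-ETV1, against 7.42, 2.6 and 31.7 in WT on 1421211_a_at. WT C and T-ETV1 D were nevertheless its 2 highest arrays there, and also on 1421210_at, with 14.9 on T-ETV1 D and 16.2 on WT C, against at most 7.29 on the others. The third Ciita probe set, 1447075_at, was highest on T-ETV1 B, at 65.0.

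The peptide editors of class II, which exchange Cd74 fragments for antigen, divided further. H2-DMa had 117, 171, 74.4 and 514 in T-ETV1, against 102, 105 and 623 in WT, with WT C and T-ETV1 D on top. The joint H2-DMb2 and H2-DMb1 probe set 1418638_at had 98.6, 432, 65.5 and 373 in T-ETV1, against 1.44, 1.92 and 599 in WT. WT A and WT B were thus the lowest arrays, as for H2-Q10, and the log2 difference was 1.80 ± 1.37 (adjusted p 0.908), and 3.51 without WT C. The second joint set, 1449580_s_at, had 54.0, 181, 52.1 and 248 in T-ETV1, against 12.1, 9.12 and 379 in WT, a log2 difference of 0.94 ± 1.06 (adjusted p 0.94), and 2.24 without WT C. Of the probe sets of H2-DMb2 alone, 1443686_at had 19.9, 12, 76.3 and 7.94 in T-ETV1, against 21.8, 5.02 and 502 in WT. It was low on T-ETV1 D, as was 1443687_x_at, at 7.17. H2-DMb2 probe set 1419744_at had 16.1, 12.7, 11.6 and 21.1 in T-ETV1, against 10.7, 6.78 and 50.9 in WT, with the order of H2-DMa at its top.

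H2-Oa and H2-Ob, the pair that restrains H2-DM and that is made chiefly by B cells, were highest on WT C. In their single-gene probe sets the T-ETV1 arrays reached at most 7.73, WT A and WT B at most 6.02, and WT C had 60.3 for H2-Oa and 54.4 for H2-Ob. H2-Ea, the alpha chain gene of I-E that some haplotypes do not transcribe, lay between 6.05 and 42 over its 3 probe sets and 7 arrays, and did not follow H2-Eb1: on 1422891_at WT C was lowest, at 8.85. H2-Eb2 lay between 22 and 37.9.

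**Figure D4:**
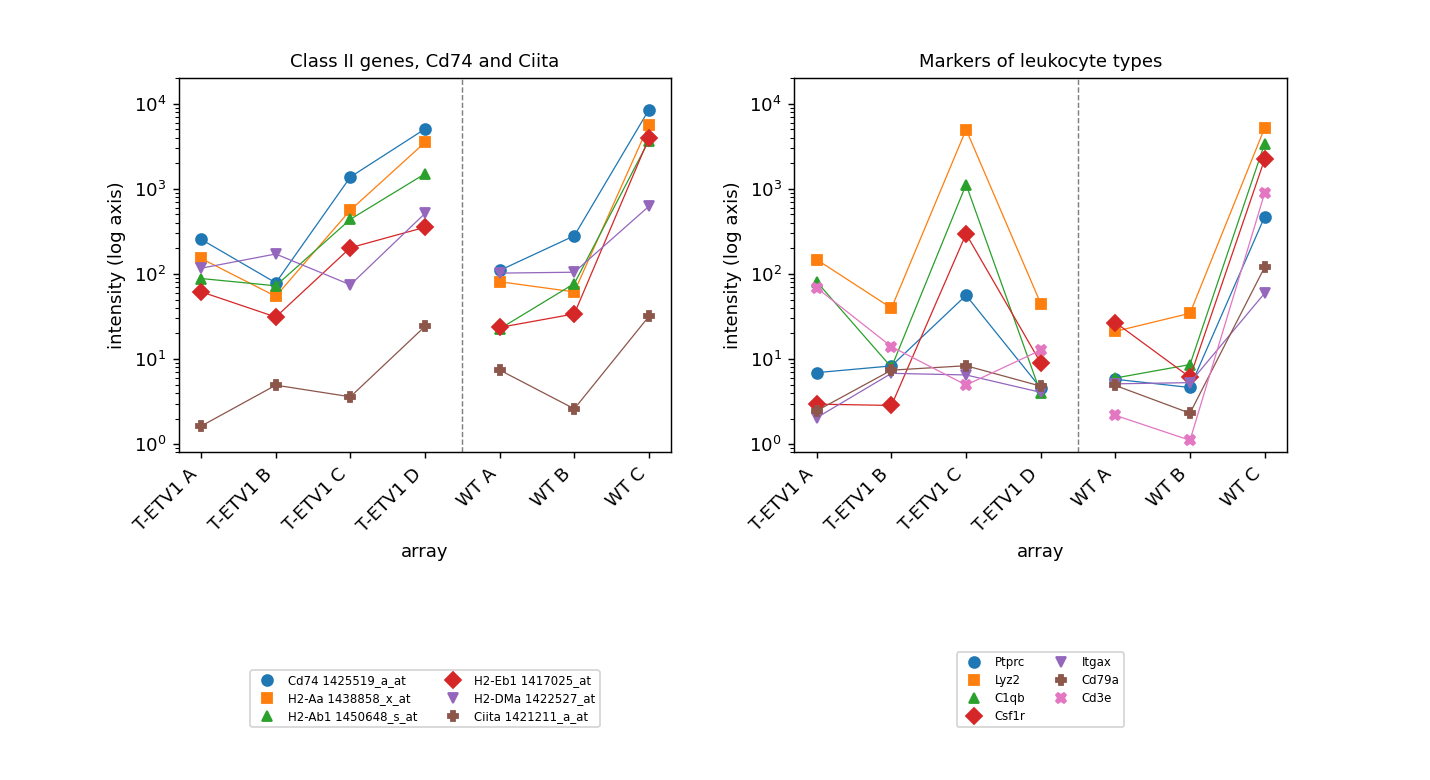
Intensity (log axis) on each array, T-ETV1 A to D left of the dashed line and WT A to C right of it, with 1 symbol per probe set or gene. In the left panel class II genes and Cd74 are high on T-ETV1 D and WT C (Cd74 at 5042 and 8477). Ciita, drawn by its probe set highest on T-ETV1 D, is low throughout, at 24.2 and 31.7 on these arrays. In the right panel the 7 leukocyte markers drawn are highest on WT C and in part raised on T-ETV1 C. On T-ETV1 D they reach at most 44.8, and on WT C Itgax, at 59.2, is below the median of that array. Cd53, Cd52 and the dendritic marker Zbtb46, at 116, 5751 and 177 on T-ETV1 D, are above its median and not drawn.

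Most markers of leukocytes, the cells that the CD45 gate removes and that carry most class II in the body, were high with class II on WT C. Macrophage and general leukocyte markers were mostly high on T-ETV1 C too, and most markers were low on T-ETV1 D. Ptprc, the gene of CD45, had 6.92, 8.3, 56.0 and 4.56 in T-ETV1, against 5.78, 4.63 and 467 in WT. Lyz2, the macrophage lysozyme, had 147, 39.6, 4962 and 44.8 in T-ETV1, against 21.1, 34.5 and 5163 in WT, and C1qb, a complement gene of macrophages, had 80.5, 7.99, 1121 and 3.96 in T-ETV1, against 5.98, 8.6 and 3393 in WT. On T-ETV1 D all 9 macrophage markers were below the median of the array, 4 of 4 B cell markers and 5 of 6 dendritic markers likewise, and 6 of 6 of T and NK cells. Of 7 general leukocyte markers 5 were below it there, the others being Cd53 at 116 and Cd52, which lay between 5751 and 9153 on all 7 arrays. On T-ETV1 C 1 of 9 macrophage and 1 of 7 general leukocyte markers were below its median. There 4 of 4 of B cells, 5 of 6 dendritic and 5 of 6 of T and NK cells were below it, close to the counts on T-ETV1 D. On WT C 0 of 9 macrophage and 0 of 7 general leukocyte markers were below its median. The counts there were 1 of 4 of B cells, 2 of 6 of T and NK cells and 4 of 6 dendritic. The dendritic markers summed to 154, 149, 160.0 and 199 in T-ETV1, against 261, 291 and 791 in WT. Zbtb46, the dendritic marker above the median on T-ETV1 D, made up most of each sum. It had 135, 117, 132 and 177 in T-ETV1, against 237, 272 and 592 in WT. What part other cells have in the class II values of any array, T-ETV1 D included, was not tested.

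Further genes of the pathway were taken from 3 lists. Of 23 measured genes of other antigen processing steps, 6 were higher and 17 lower in T-ETV1, with a median log2 difference of -0.13, and 0 were called. Fcgrt, the neonatal Fc receptor of class I fold, had 42, 30.2, 373 and 13.4 in T-ETV1, against 141, 248 and 1108 in WT, and Psme1, a cap subunit of the proteasome, had 4386, 4021, 4963 and 4854 in T-ETV1, against 5431, 5335 and 5349 in WT. Rfx5, a factor that binds class II promoters together with Ciita, had 1452, 1716, 1616 and 1630 in T-ETV1, against 1702, 1860 and 1976 in WT. Its part in the class II values was not tested. Mr1, which presents vitamin metabolites, had 626, 435, 478 and 646 in T-ETV1, against 569, 846 and 710 in WT. Groups overlapped in Rfx5, Mr1 and Fcgrt, and in Psme1 all T-ETV1 arrays were below all WT arrays.

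Interferon gamma acts on class II through Ciita. Of 16 measured genes of its response and regulation, 7 were higher and 9 lower in T-ETV1, and 0 were called. Gbp2, an interferon-induced GTPase, had 24, 57.9, 158 and 221 in T-ETV1, against 59.3, 44.6 and 209 in WT, high on the same 3 arrays as class II. Gbp3, of the same family, had 24.9, 32.6, 9.81 and 41.2 in T-ETV1, against 40.6, 30.4 and 150 in WT. Irf1 had 929, 1469, 929 and 816 in T-ETV1, against 820, 976 and 1922 in WT, so that T-ETV1 D was its lowest array. Cxcl9 and Cd274 were highest on WT C (101 and 735), then on T-ETV1 C (26.4 and 367). On T-ETV1 D they had 14.2 and 140. Of 12 measured interferon-stimulated genes, 5 were higher and 7 lower with 0 called, and Ifit1 had 390.2, 1327, 115 and 218 in T-ETV1, against 145, 407 and 1265 in WT, high on T-ETV1 B and WT C. Xaf1, an interferon-induced regulator of apoptosis, had 1206, 743, 670 and 1001 in T-ETV1, against 367, 420 and 1160 in WT. Gbp2, Irf1 and Ifit1 were singled out after their values were seen.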

How the data were processed

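Affymetrix 430 2.0 arrays of sorted mouse prostate luminal cells were used, 4 of T-ETV1 and 3 of WT; RNA was amplified with a NuGEN V2 kit, per the labels' protocols. The authors deposited 1 intensity per probe set and array on a linear scale; the sources used here do not give the summarisation or the scaling behind it. There were 1907 intensities at or under 1. Array medians of log2(intensity + 16) differed by at most 0.476, under the limit of 0.5 for quantile normalization, so the deposited scaling was kept. Differences are on that log2 scale, with a pseudocount of 16, and understate changes at low intensity.

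Genes were named from the platform annotation, in which 34945 probe sets had 1 symbol, 932 several and 9160 none. Each probe set was tested on its own by linear models (lmFit, then eBayes, in limma 3.58.1 under R 4.3.3), two-sided and as T-ETV1 minus WT, with Benjamini-Hochberg adjustment over 45037 probe sets and a threshold of 0.05; the procedure was tested on simulated data. The members and lists were chosen with earlier results of these data known. Array values are given for the probe set of each symbol with the highest mean, where that mean was above the median of all probe sets (45 of 79 members were), and for probe sets with groups that do not overlap or with WT A and WT B set apart. Other probe sets named with array values, among them further sets of H2-D1, H2-K1, H2-DMb2 and Ciita, were chosen after their values were seen. In the further lists the probe set with the highest mean stood for a gene.

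The letters A to C occur in both genotypes. The correlation of the deviations from each group's mean was 0.202 between the A arrays, 0.181 between the B and 0.292 between the C arrays, each above the pairing limit of 0.1; T-ETV1 D and WT A also reached 0.14. The fit with the replicate block used the arrays A to C. Other alternatives were quantile normalization, median centring, pseudocounts of 1 and 64, leaving out the lowest 30% or 50% of probe sets, 1 probe set a symbol, eBayes with a trend or robust, array weights, leaving out each array, both C arrays, or WT A and WT B, and other thresholds. Sequences are from RefSeq, build GRCm38.p6; that of Cd74 is not reported here.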

Additional observations from a re-analysis of the deposited data

Results flagged for a closer look

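In Psmb9, an immunoproteasome subunit, T-ETV1 D lay apart from the other T-ETV1 arrays. Its gap to the nearest array was 0.907 of the whole range of the 4 arrays, above the critical value for 4 samples, with intensities of 601, 603, 574 and 988 in T-ETV1 A to D, against 716, 889 and 963 in WT A to C. It was 1 of 34 probe sets looked at this way, and chance flags about 1 in 20. The cause was not tested.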

How the results depend on the processing

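The count of 0 member probe sets called held under every alternative except 3: 5 were called without WT C, 5 without both C arrays, and 10 stood at an unadjusted p under 0.05. Leaving out single arrays gave 0 to 5 calls. The 4 probe sets whose groups did not overlap became 2 with 1 probe set a symbol, 10 with the replicate block, which drops T-ETV1 D, 33 without both C arrays (24.2% of all probe sets), 55 without WT A and WT B (39.5%), and 6 to 26 without single arrays (9.32% to 14.5%). The median log2 difference of members was 0.25 without both C arrays and -0.35 without WT A and WT B. Median centring moved the median of all probe sets to 0.12.

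Of the 19 probe sets with a reported difference, 8 kept their direction in every alternative and 11 turned in at least 1. None of the turned values was called on 7 arrays, and the cause was not tested. With median centring B2m came to 0.13, Tapbp to 0.01 (0.005) and Cd74 to 0.071, and with array weights B2m to 0.01, H2-Eb1 to 0.31 and Cd74 to 0.57. With the replicate block B2m was 0.00 (0.003), H2-Aa -0.88 and H2-Ab1 -0.56 (-0.555), and with a pseudocount of 64 H2-Ab1 was -0.00 (-0.001). Without both C arrays H2-Eb1 was 1.32 and Cd74 1.39. Without WT A and WT B H2-Aa was -3.85, H2-Ab1 -3.71, the H2-DMb sets -1.62 (-1.615) and -1.65, H2-D1 1452544_x_at 0.26, H2-K1 -0.30 and H2-Q10 -0.31. Leaving out single arrays gave ranges of -0.02 to 0.01 (0.008) for B2m, -0.91 to 2.19 (2.185) for H2-Aa, -1.05 to 2.24 for H2-Ab1, -1.76 to 1.56 for H2-Eb1 and -1.28 to 1.75 for Cd74. With 3 and 4 arrays, and no depth or detection calls used here, low intensities have no known floor.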
